A study of Mus musculus with 23 samples.

Results

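Gluconeogenesis is the route by which the liver makes glucose from lactate, glycerol and amino acids. The 10 genes of this route described here were chosen by their symbol in the count tables: the co-activator Ppargc1a, the one-way enzymes Pcx, Pck1, Pck2, Fbp1 and G6pc, the glucose 6-phosphate transporter Slc37a4, and the aminotransferases Gpt, Gpt2 and Tat. All 10 of 10 were present among the 24062 genes of the tables, and all 10 passed the filter on low counts that kept 14196 genes. Liver polyA RNA of 23 mice of a mixed B6/129 background was sequenced, 1 library per mouse. The mice were wild type (WT) or knockout (KO) for Ehhadh, a peroxisomal enzyme of fatty acid oxidation, and had received saline or L-AC. The WT mice were 7 given saline (29 to 45 weeks old) and 6 given L-AC (28 to 44 weeks old). The KO mice were 5 given saline (31 to 44 weeks old) and 5 given L-AC (28 to 38 weeks old). L-AC is given in the labels only by that abbreviation. Its dose, the time before sampling, the feeding state of the mice and the part of Ehhadh that was deleted are not given in the sources used here.

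Most glycolytic enzymes work in both directions, and gluconeogenesis bypasses the one-way steps with enzymes of its own. Pyruvate carboxylase (Pcx) and phosphoenolpyruvate carboxykinase (Pck1 in the cytosol, Pck2 in mitochondria) turn pyruvate into phosphoenolpyruvate, fructose-1,6-bisphosphatase (Fbp1) opposes phosphofructokinase, and glucose-6-phosphatase (G6pc) with its transporter Slc37a4 releases glucose in the endoplasmic reticulum. In fasting, glucagon through cAMP and glucocorticoids raise transcription of several of these genes, and Ppargc1a (PGC-1 alpha) is a co-activator in that response, while insulin represses it. Alanine aminotransferase (Gpt in the cytosol, Gpt2 in mitochondria) and tyrosine aminotransferase (Tat) bring amino acid carbon in.

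The counted exons lay on mm10 at chr5:51454249-51553921 for Ppargc1a (13 exon blocks), chr19:4510472-4621752 for Pcx (22), chr2:173153073-173159253 for Pck1 (10) and chr14:55540266-55550017 for Pck2 (10). Those of Fbp1 lay at chr13:62864753-62888282 (7 blocks), of G6pc at chr11:101367730-101377903 (5) and of Slc37a4 at chr9:44398176-44402965 (8). The aminotransferases lay at chr15:76696764-76699675 for Gpt (11), chr8:85492617-85527558 for Gpt2 (12) and chr8:109990436-109999804 for Tat (12).

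Between 24521896 and 48095959 reads were counted per library. For Ehhadh, the targeted gene, counts scaled to the library size (CPM) spanned 634.7 to 1634 in WT and 90.88 to 252.8 in KO among saline mice, and 10260 to 14650 in WT and 1421 to 2143 in KO among L-AC mice. KO thus lay below WT within each treatment, and reads remained in KO. The first principal component of log2 CPM held 54% of the variance and separated all 11 L-AC libraries from all 12 saline libraries. The saline library with the highest score was WT replicate 1 (-28.99, the others at -41.61 or below). The L-AC library with the lowest score was WT replicate 3 (27.41), and the one with the highest was KO replicate 5 (70.77).

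The 250 bases before and 50 bases after the RefSeq start site (GRCm38.p6) were found for 9 of the 10 genes, in 12 windows, with Gpt unmatched. They are shown for Pck1 and G6pc, the textbook targets of the fasting response, and for Fbp1 and Gpt2, the genes with the clearest fall and rise described below. Capitals mark the motifs searched on both strands. The whole cAMP response element was searched as TGACGTCA, and its shorter part as TGACG, which the whole element contains. The core bound by FOXO factors was searched as TGTTTAC. The short site of the glucocorticoid receptor was searched as AGAACA. The short site of other nuclear receptors was searched as AGGTCA. The TATA box was searched as TATAAA. The Pck1 window is chr2:173152823-173153122, plus strand; the G6pc window is chr11:101367466-101367765, plus strand. The Fbp1 window is chr13:62888233-62888532, minus strand; the Gpt2 window is chr8:85492326-85492625, plus strand.
Pck1: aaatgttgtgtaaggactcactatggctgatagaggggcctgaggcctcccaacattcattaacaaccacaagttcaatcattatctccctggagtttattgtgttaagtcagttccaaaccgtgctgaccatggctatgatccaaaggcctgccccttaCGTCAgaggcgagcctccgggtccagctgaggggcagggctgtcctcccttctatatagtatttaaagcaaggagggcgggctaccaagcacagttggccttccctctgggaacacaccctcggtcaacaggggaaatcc
G6pc: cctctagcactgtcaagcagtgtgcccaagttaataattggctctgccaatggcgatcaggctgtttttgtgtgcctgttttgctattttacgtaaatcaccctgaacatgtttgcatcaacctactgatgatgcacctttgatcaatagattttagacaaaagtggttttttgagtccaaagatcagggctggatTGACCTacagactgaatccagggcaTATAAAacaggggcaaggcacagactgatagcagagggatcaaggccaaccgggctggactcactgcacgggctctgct
Fbp1: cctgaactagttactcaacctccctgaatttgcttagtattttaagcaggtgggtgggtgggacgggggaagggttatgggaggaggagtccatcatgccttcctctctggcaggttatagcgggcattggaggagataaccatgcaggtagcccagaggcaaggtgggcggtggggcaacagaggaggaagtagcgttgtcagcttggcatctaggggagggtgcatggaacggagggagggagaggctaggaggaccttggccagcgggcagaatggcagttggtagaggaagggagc
Gpt2: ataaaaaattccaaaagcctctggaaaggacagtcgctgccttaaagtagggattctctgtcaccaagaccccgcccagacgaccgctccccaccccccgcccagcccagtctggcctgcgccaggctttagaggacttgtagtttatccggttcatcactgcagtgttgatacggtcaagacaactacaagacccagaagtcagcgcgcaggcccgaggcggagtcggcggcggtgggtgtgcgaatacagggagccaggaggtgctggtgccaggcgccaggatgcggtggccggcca
The Pck1 window held TGACG in reverse orientation at bases -90 to -86 from the start, and the G6pc window held AGGTCA in reverse orientation at -54 to -49 and TATAAA at -29 to -24. No searched motif was found in the Fbp1 and Gpt2 windows, nor in those of Pck2 and Tat. Among 32851 promoter windows of the same length, TGACG occurred in 20.8%, AGGTCA in 16.3%, TATAAA in 13.6%, AGAACA in 19%, TGTTTAC in 3.65% and TGACGTCA in 1.79%. In the other windows TGACG occurred for Ppargc1a and Slc37a4 and AGGTCA for Pcx and Slc37a4, and TATAAA for Slc37a4. The Pcx match was only in the second of its 2 windows, at bases 39 to 44 after a start inside the gene (chr19:4594319). The 3 Slc37a4 windows have starts at 44396946, 44397099 and 44398354 on chr9, against 44398176 in the count tables. The Ppargc1a window lies 13804 bases upstream of the start given in the count tables. A match is a string of letters and was not tied to binding or to the response.

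L-AC was followed by a mixed pattern, with genes of the route called in both directions. Gpt2 rose more than 3-fold in both genotypes, Tat rose in WT, and Fbp1 and Ppargc1a fell in both genotypes. Slc37a4 fell in KO, while Pck1, G6pc, Pcx and Gpt passed the test in neither genotype. Genes were called at a Benjamini-Hochberg adjusted p under 0.05 in edgeR's quasi-likelihood test over 14196 genes. In WT, 2 of the 10 genes were higher (Gpt2 and Tat) and 2 lower (Fbp1 and Ppargc1a), beside 26.6% of all genes higher and 26.7% lower. In KO, 2 were higher (Gpt2 and Pck2) and 3 lower (Fbp1, Slc37a4 and Ppargc1a), beside 25.2% and 23.6% of all genes. The share of the 10 genes called was thus near that of all genes. At an adjusted p under 0.01, 1 was higher and 1 lower in WT, beside 20.1% and 19.9% of all genes, and 2 were higher and 1 lower in KO, beside 18.9% and 16.4%. The median log2 fold change of the 10 was -0.27 in WT and -0.33 in KO, and that of all genes -0.01 in both. In each genotype 3 of the 10 lay above 0 (Gpt2, Tat and Pck2) and the others below it, not all of them called. The p-values set the difference between group means against the spread between animals. In whole liver, fewer cells of a type and less RNA per cell cannot be told apart.

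**Figure D1:**
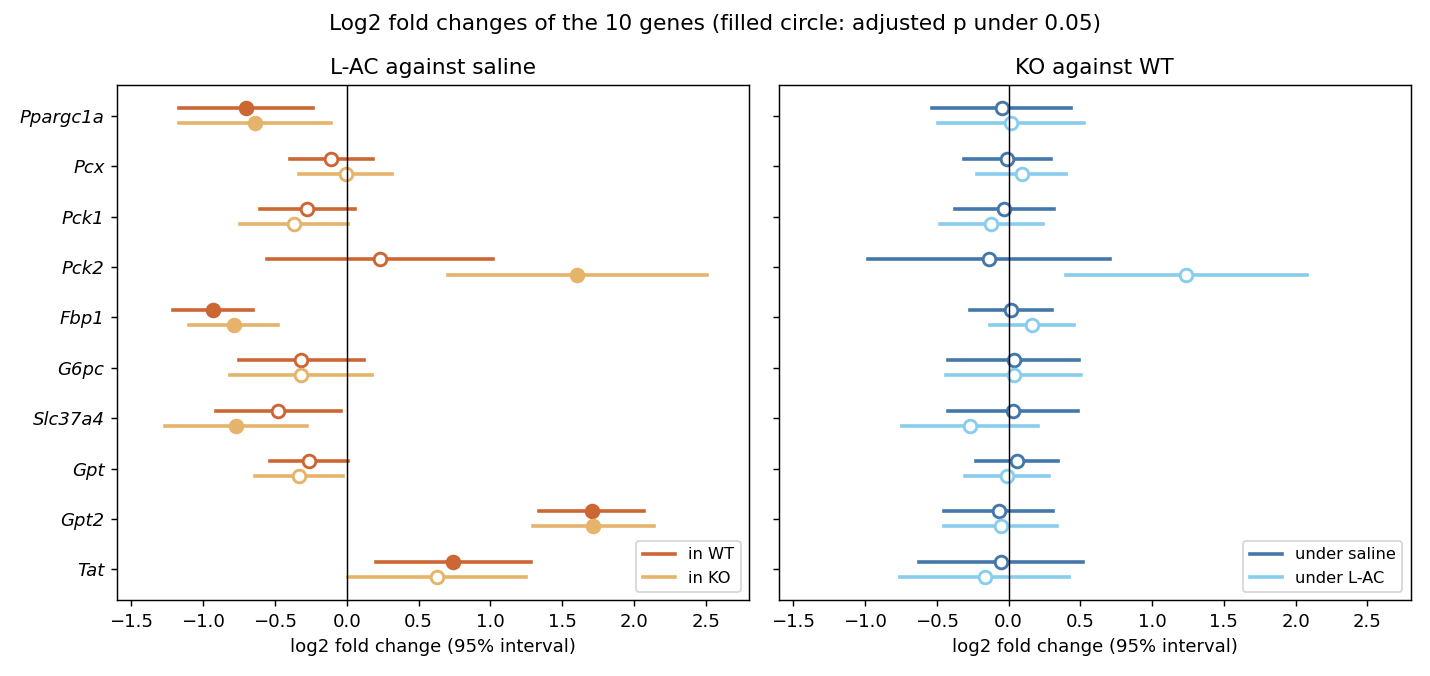
Log2 fold changes of the 10 genes with 95% intervals, for L-AC against saline in each genotype (left) and KO against WT under each treatment (right); filled circles passed the adjusted p of 0.05 and open circles did not. Gpt2 lies near 1.7 in both genotypes on the left, and on the right no circle is filled.

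The co-activator Ppargc1a was a low transcript. In WT saline it ran from 5.87 to 13.27 CPM with a median of 7.3, and KO saline held 7.194, 8.636, 8.929, 8.497 and 7.574 CPM. In WT L-AC it ran from 3.701 to 9.364 with a median of 4.518, and KO L-AC held 6.615, 6.232, 4.383, 3.431 and 5.586 CPM. All 5 KO L-AC libraries lay below all 5 KO saline libraries. In WT, 5 of 6 L-AC libraries lay below all 7 saline libraries, and replicate 6, at 9.364 CPM, lay above 5 of them. Ppargc1a fell by 0.70 on the log2 scale in WT (SE 0.225, 1.63-fold lower, edgeR adjusted p = 0.0116) and by 0.64 in KO (SE 0.256, 1.56-fold lower, adjusted p = 0.0435). The KO call was lost when any of 7 libraries was left out (KO saline replicate 2, 3, 4 or 5, KO L-AC replicate 3, 4 or 5), with a log2 fold change between -0.52 and -0.66 and an adjusted p of up to 0.114. Its paralogues did not follow it: Ppargc1b, a co-activator of the same family, rose 2.2-fold in WT and 2.09-fold in KO (edgeR adjusted p = 0.000586 and 0.00402), and Pprc1 rose 1.48-fold and 1.5-fold (adjusted p = 0.00194 and 0.00438).

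At the entry from pyruvate, Pcx passed the test in neither genotype. It ran from 645.6 to 976.3 CPM over the 12 saline libraries and from 503.8 to 996.3 CPM over the 11 L-AC libraries, so the L-AC range enclosed the saline range. The log2 fold change of Pcx under L-AC was -0.11 in WT (95% interval -0.39 to 0.18) and -0.01 in KO (-0.33 to 0.32). Pck1, the enzyme often taken as the marker of the route, held 3035 to 5440 CPM in WT saline (median 4186) and 4322, 4415, 3569, 4076 and 4448 CPM in KO saline. In L-AC it held 2693 to 4145 CPM in WT (median 3595) and 4057, 3618, 2705, 3938 and 1845 CPM in KO. The ranges overlapped in both genotypes, and the lowest value of the 23 was KO L-AC replicate 5, the library farthest along the first component. The log2 fold change of Pck1 was -0.28 in WT (SE 0.16, edgeR adjusted p = 0.152) and -0.37 in KO (SE 0.181, adjusted p = 0.0992).

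Pck2, the mitochondrial form, was near the floor of the gene set, with 43 to 545 reads per library. WT saline ran from 1.501 to 4.051 CPM (median 1.976) and WT L-AC from 1.939 to 3.12 (median 2.595). KO saline held 1.539, 2.054, 2.31, 2.478 and 1.674 CPM, and KO L-AC held 3.376, 3.701, 18.81, 2.18 and 2.623 CPM. A single library, KO L-AC replicate 3, was thus more than 4 times above every other. The fitted rise in KO of 1.61 on the log2 scale (SE 0.437, edgeR adjusted p = 0.00428) became 0.56, or 1.47-fold, with an adjusted p of 0.0629 without that library. In WT the log2 fold change was 0.23 (95% interval -0.55 to 1.02) and did not pass the test. Of 8 genes of the stress and amino acid response looked up after this value was seen, 4 were highest of the 23 libraries there. The share of all genes highest in that library is not given here, so 4 of 8 cannot be set against it. Slc7a11, a cystine transporter, had 7.731 CPM in that library and at most 0.802 in the other 22, and Chac1 and Psat1 had 17.36 and 12.18 CPM against at most 13.5 and 8.8. Phgdh, at 0.345 CPM against at most 0.33, barely exceeded the others. The remaining 4 were not highest there: Ddit3 had 23.19 CPM against up to 24.21 in the other 22, Trib3 51.8 against up to 84.87, Asns 11.7 against up to 29.27 and Atf4 140.7 against up to 172.8. Their part in the Pck2 value was not tested.

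Fbp1, which removes a phosphate from fructose 1,6-bisphosphate, separated the treatments completely. It ran from 765.9 to 1403 CPM in WT saline (median 912.5) and from 421.7 to 572.4 CPM in WT L-AC (median 526.6). KO saline held 1055, 975.8, 976.8, 1082 and 845.4 CPM and KO L-AC held 720.1, 545.3, 527.8, 440.0 and 625 CPM. All 11 L-AC libraries lay below all 12 saline libraries. Fbp1 fell by 0.93 on the log2 scale in WT (SE 0.133, 1.91-fold lower, edgeR adjusted p = 4.89e-06) and by 0.79 in KO (SE 0.15, 1.73-fold lower, adjusted p = 0.000166). Its paralogue Fbp2, known as the muscle form, rose 7.09-fold in WT and 5.99-fold in KO (edgeR adjusted p = 7.79e-07 and 2.33e-05). Fbp2 remained low, at a mean of 6.82 ± 3.49 CPM in WT L-AC (SD, n = 6) from 0.951 ± 0.435 in WT saline (SD, n = 7).

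At the last step, G6pc held 495.5 to 1088 CPM in WT saline (median 672.8) and 829.5, 1027, 784.3, 536.3 and 688.6 CPM in KO saline. In L-AC it held 376 to 686.5 CPM in WT (median 645) and 713.7, 536.4, 401.5, 934.1 and 509.8 CPM in KO. The groups overlapped, and the log2 fold change was -0.32 in both genotypes (SE 0.21 in WT and 0.239 in KO, edgeR adjusted p = 0.208 and 0.275). Slc37a4, which carries glucose 6-phosphate to that enzyme, ran from 98.88 to 195.7 CPM in WT saline (median 145.2) and from 74.68 to 133.6 CPM in WT L-AC (median 98.76). KO saline held 128.5, 155.7, 120.8, 123.1 and 184.2 CPM and KO L-AC held 57.32, 61.0, 119.5, 120.1 and 58.42 CPM. The KO L-AC libraries formed a low trio and a pair just under the lowest KO saline value, so the KO groups did not overlap. Slc37a4 fell by 0.77 on the log2 scale in KO (SE 0.239, 1.71-fold lower, edgeR adjusted p = 0.0102). In WT its log2 fold change was -0.48 (SE 0.21, adjusted p = 0.0596), and it passed the test there with DESeq2 (adjusted p = 0.0452).

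Among the aminotransferases, Gpt2 gave the largest difference of the 10 genes. It ran from 403.1 to 1001 CPM in WT saline (median 576.9) and from 1784 to 2425 CPM in WT L-AC (median 1984). KO saline held 446.8, 742.2, 503.5, 636.8 and 638 CPM, and KO L-AC held 1601, 2095, 1836, 1701 and 2521 CPM. All 11 L-AC libraries lay above all 12 saline libraries. Gpt2 rose by 1.70 on the log2 scale in WT (SE 0.176, 3.26-fold, edgeR adjusted p = 5.95e-08) and by 1.72 in KO (SE 0.203, 3.29-fold, adjusted p = 5.35e-07).

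The cytosolic partner Gpt did not share that rise. In WT it held 245.2 to 414.8 CPM with saline and 202.1 to 319.2 CPM with L-AC. In KO it held 296.8 to 435.7 CPM with saline and 208.3 to 319.6 CPM with L-AC, so the treatments overlapped in both genotypes. Its log2 fold change was -0.26 in WT and -0.33 in KO (edgeR adjusted p = 0.0941 and 0.0686). The ratio of Gpt2 to Gpt in CPM per kilobase of counted exon was 0.721 to 1.28 over the saline libraries and 2.6 to 5.07 over the L-AC libraries, so that mitochondrial alanine aminotransferase transcripts went from about even with the cytosolic form to well above it.

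Tat, the first enzyme of tyrosine breakdown and a classic glucocorticoid-induced gene of liver, ran from 1054 to 2500 CPM in WT saline (median 1515) and from 1230 to 4195 CPM in WT L-AC (median 2722). KO saline held 1756, 2116, 1360, 1069 and 1687 CPM, and KO L-AC held 1713, 2861, 1737, 1991 and 4046 CPM. The groups overlapped in both genotypes. The low WT L-AC library, replicate 3, was the one nearest to saline on the first component, and the high KO one, replicate 5, the farthest from it. Other libraries went the other way: KO L-AC replicate 2, at 2861 CPM, had the lowest score of its group (37.62). The relation of Tat to the component was not tested. Tat rose by 0.74 on the log2 scale in WT (SE 0.261, 1.67-fold, edgeR adjusted p = 0.0203), a call lost without WT L-AC replicate 5 (0.59, adjusted p = 0.0702). In KO the log2 fold change was 0.63 (SE 0.299, adjusted p = 0.0854).

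**Figure D2:**
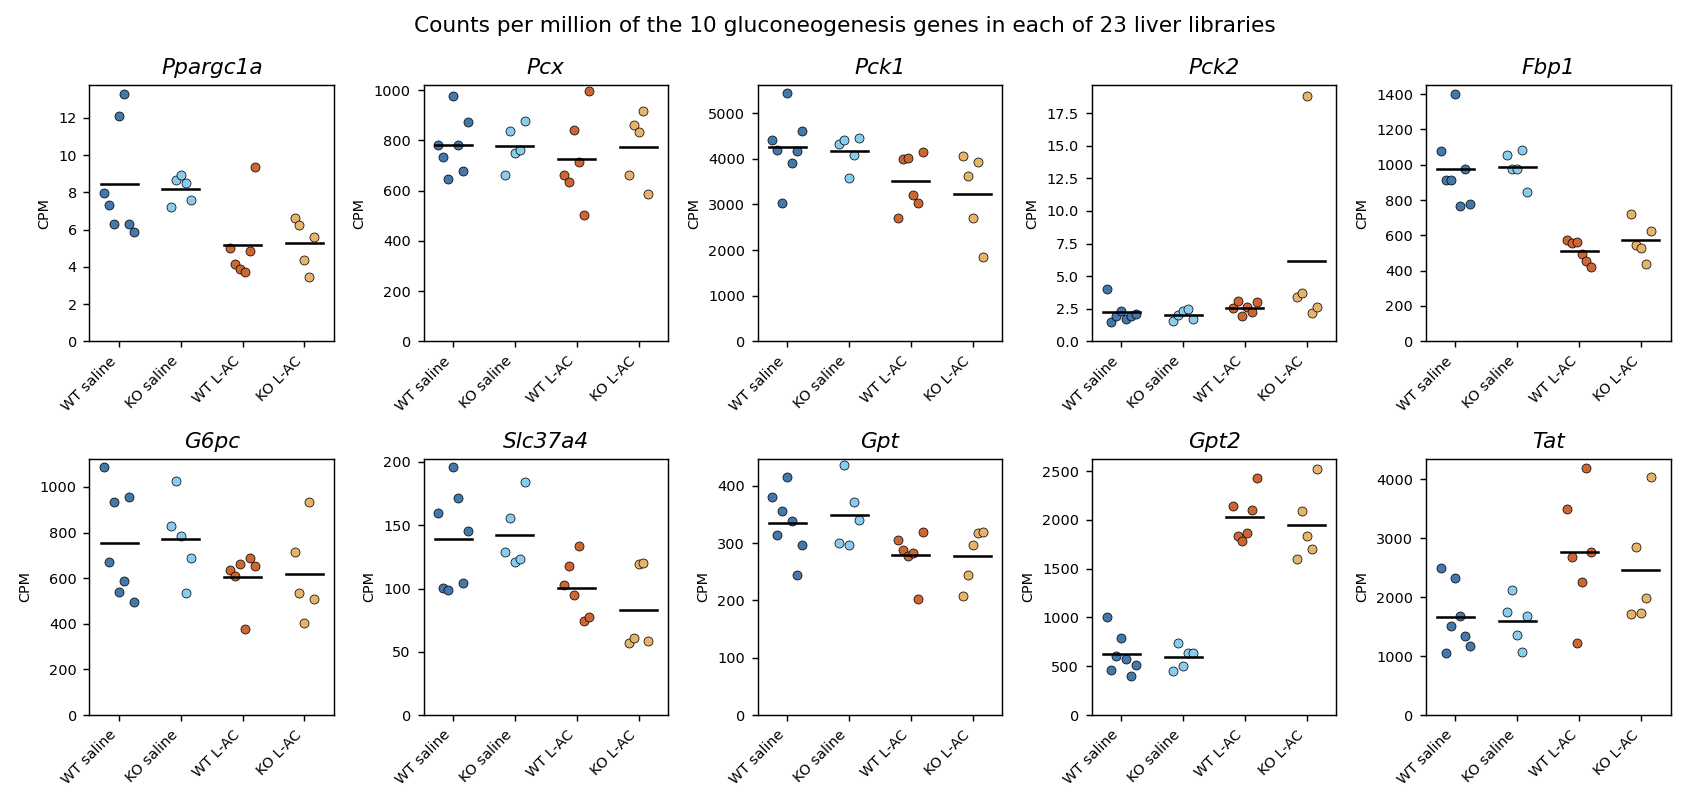
CPM of each of the 10 genes in each library, 1 point per mouse, by group, with a bar at the group mean; the linear axes start at 0. The L-AC points of Gpt2 all lie above and those of Fbp1 all below the saline points, and 1 KO L-AC library stands alone for Pck2 at 18.81 CPM.

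With the L-AC response averaged over both genotypes, which was computed on the same 23 libraries and chosen once their values were known, 3 of the 10 genes were higher (Gpt2, Tat and Pck2) and 5 lower (Fbp1, Slc37a4, Ppargc1a, Gpt and Pck1), beside 32.6% of all genes in each direction. At an adjusted p under 0.01 these numbers were 3 and 3, beside 27.2% and 26.7% of all genes. Here Pck1 fell by 0.32 on the log2 scale (edgeR adjusted p = 0.024) and Gpt by 0.30 (adjusted p = 0.0115). Slc37a4 fell by 0.63 (adjusted p = 0.00153) and Tat rose by 0.69 (adjusted p = 0.00442). G6pc, at -0.32, did not pass (adjusted p = 0.0817), and neither did Pcx at -0.06 (adjusted p = 0.642). Pck2 without KO L-AC replicate 3 was at 0.40, or 1.32-fold (adjusted p = 0.0315).

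Loss of Ehhadh was not followed by a called change in any of the 10 genes. By edgeR 0 of the 10 were called between KO and WT under saline, where 0.00704% of all genes were higher and 0.00704% lower, and 0 of the 10 under L-AC, with 0.00704% in each direction as well. The same held for the average over treatments (0.0141% of all genes in each direction) and for the interaction of genotype and treatment (0% of all genes in each direction). DESeq2 and limma-voom also called 0 of the 10 in each of these contrasts, but they called few genes at all. DESeq2 called 4 of all genes higher and 3 lower under saline, 10 and 5 under L-AC, and 12 and 10 in the average. For limma-voom these numbers were 1 and 1, 1 and 1, and 4 and 2. Both called 0 for the interaction. With so few calls, 0 of 10 does not set these genes apart from others. At an unadjusted edgeR p under 0.05 there were 0 of the 10 under saline and 1 under L-AC, beside 1.86% and 4.53% of all genes. There was 1 for the interaction and 0 for the average, beside 2.25% and 3.79% of all genes, and both single genes were Pck2. Its log2 difference between KO and WT under L-AC was 1.24 (edgeR adjusted p = 0.836) and became 0.19 without KO L-AC replicate 3. Its interaction of 1.37 (edgeR adjusted p = 1) became 0.33. For the 9 other genes the 95% intervals of KO over WT lay within 0.65-fold and 1.43-fold under saline and within 0.592-fold and 1.44-fold under L-AC. Slc37a4, called under L-AC in KO and not in WT, had an interaction of -0.30 (95% interval -0.95 to 0.36, edgeR adjusted p = 1).

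Scaled by counted exon length, the levels of the 10 genes differed widely. In WT saline Pck1 led at 1624 ± 277.8 CPM per kilobase (SD, n = 7), above Tat at 696.6 ± 235.5 and Fbp1 at 659 ± 147.4, whose ranges overlapped. G6pc followed at 335.4 ± 104.7, with 1 library, replicate 7 at 220.7, within the range of Gpt. Gpt (191.5 ± 32), Pcx (182.8 ± 26.6) and Gpt2 (172.9 ± 57.8) did not differ beyond their spread. Slc37a4, at 66.9 ± 18.6, stood apart from Gpt2 above and from Ppargc1a below, since no ranges overlapped. Ppargc1a, at 1.3 ± 0.463, and Pck2, at 0.653 ± 0.249, were lowest with touching ranges, and the ratio of Pck1 to Pck2 ran from 1420 to 3620 over the WT saline libraries. The order in KO saline was the same for all 10 genes.

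Under L-AC the mean of Gpt2 moved from rank 7 to rank 3, past Fbp1, G6pc, Gpt and Pcx. It was 563.6 ± 68 CPM per kilobase in WT (SD, n = 6) and 542.5 ± 102.5 in KO (SD, n = 5). In KO L-AC the ranges of Gpt2 and Fbp1 overlapped, and Gpt2 was above Fbp1 in 4 of 5 libraries. Tat came up to Pck1, with overlapping ranges in both genotypes (1166 ± 428.8 against 1342 ± 234.1 in WT). At the bottom, Ppargc1a and Pck2 overlapped in WT L-AC (0.794 ± 0.327 against 0.761 ± 0.13). In KO L-AC the mean of Pck2, 1.805 ± 2.09, was above Ppargc1a at 0.808 ± 0.204 and carried the single high library.

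**Figure D3:**
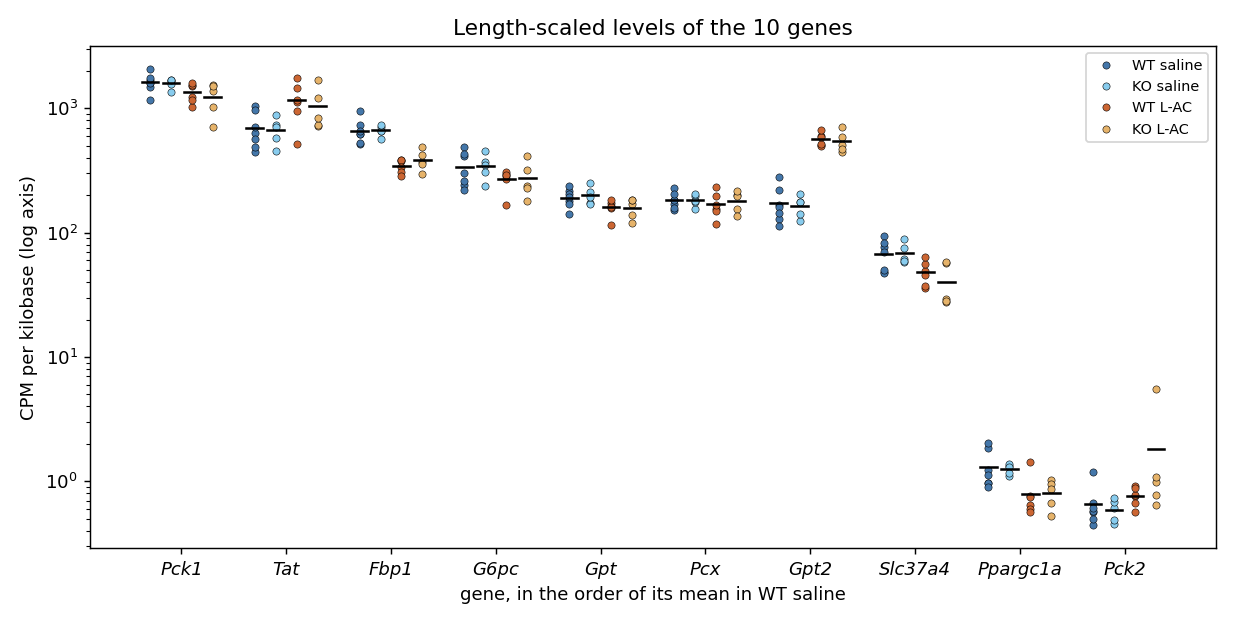
CPM per kilobase of counted exon on a log axis, 1 point per library and a bar at the mean of each of the 4 groups, with genes in the order of their WT saline means. Pck1 is highest and Ppargc1a and Pck2 are lowest in every group, and Gpt2 is the gene whose L-AC points leave its saline points the farthest.

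One-way enzymes of the route oppose enzymes of glycolysis, and for Fbp1 and Pck1 the ratio to such an enzyme within a library, in CPM per kilobase, was looked at after the data were seen. The ratio of Fbp1 to Pfkl, the liver phosphofructokinase, was 38.5 to 73.5 in WT saline and 34.7 to 95 in WT L-AC, with medians of 52.2 and 51.1. In KO this ratio was 46.5 to 57.3 with saline and 36.6 to 109 with L-AC, with medians of 51.3 and 59. Pfkl had fallen by 0.91 on the log2 scale in WT, and Fbp1 fell by 0.93. The ratio of Pck1 to Pklr, the liver pyruvate kinase, had medians of 50.7 in WT saline and 110 in WT L-AC, and of 45.5 and 107 in KO, with overlap between treatments.

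The other genes of the pathway were taken from 9 lists with 93 symbols, of which 92 were in the tables and 91 were tested. Their counts stand beside 26.6% of all genes called higher and 26.7% lower in WT, and 25.2% and 23.6% in KO. Under L-AC all 7 of 7 reversible enzymes shared by glycolysis and gluconeogenesis were higher in WT and 6 of 7 in KO, with median log2 fold changes of 0.45 and 0.47. Phosphoglycerate mutase Pgam1 rose 1.76-fold in WT and 1.74-fold in KO (edgeR adjusted p = 4.27e-07 and 3.94e-06), Pgk1 rose 1.4-fold and 1.43-fold, and Tpi1 rose 1.36-fold and 1.25-fold. Gpi1, at 0.19 in KO, was the member that did not pass there (adjusted p = 0.0823). Of 7 genes for the one-way steps of glycolysis and their regulators, 0 were higher and 4 lower in WT, and 1 was higher (Hk2) and 2 lower in KO. The medians were -0.68 and -0.55. Pyruvate kinase Pklr was 2.53-fold lower in WT and 2.62-fold lower in KO (edgeR adjusted p = 7.47e-07 and 2.94e-06), and Pfkl 1.88-fold and 1.92-fold lower (adjusted p = 0.000284 and 0.000753). Pfkfb1, which sets the level of the phosphofructokinase activator fructose 2,6-bisphosphate, fell by 0.68 on the log2 scale in WT (adjusted p = 0.0128) and was at -0.55 in KO (adjusted p = 0.0743).

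Substrate entry was mixed. Of 7 genes for lactate and pyruvate, 3 were higher and 0 lower in WT, and 2 higher and 1 lower in KO. Pdk4, a kinase that shuts off pyruvate dehydrogenase, had 26.6 ± 11.4 CPM in WT saline (SD, n = 7) and 1172 ± 466.1 CPM in WT L-AC (SD, n = 6), a 44-fold rise (edgeR adjusted p = 1.48e-10), and rose 47.5-fold in KO. The monocarboxylate transporter Slc16a1 rose 1.96-fold and 1.8-fold. Ldha passed in WT by a narrow margin (log2 fold change 0.32, adjusted p = 0.0488) and the call was lost in 17 of 23 fits that each left out a library, with an adjusted p of up to 0.136. Of 5 glycerol genes in the tables, 3 were higher and 1 lower in both genotypes. The channels Aqp3 and Aqp7 rose 25.5-fold and 10.2-fold in WT and 21.2-fold and 6.45-fold in KO, but both remained near the floor. In WT the mean of Aqp3 was 0.126 CPM with saline and 3.38 with L-AC, and that of Aqp7 0.18 and 1.88. For Aqp7, 5 of 6 WT L-AC libraries lay above all WT saline libraries. The mitochondrial dehydrogenase Gpd2 rose 3.21-fold and 2.84-fold. Aqp9, the main glycerol channel of hepatocytes, fell by 0.71 on the log2 scale in WT and by 0.67 in KO.

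Of 15 genes for amino acid entry, 3 were higher and 8 lower in WT and 3 higher and 4 lower in KO, with medians of -0.44 and -0.19. Sdsl, a serine dehydratase-like gene, rose 5.93-fold in WT and 6.05-fold in KO (edgeR adjusted p = 1.39e-10 and 1.61e-09). Glutamate dehydrogenase Glud1 was 1.99-fold and 2.16-fold lower, and the liver glutaminase Gls2 1.99-fold and 1.79-fold lower. The rise of Gpt2 was thus not shared by most genes of that list. Of 7 genes of the malate and aspartate shuttle, 2 were higher and 2 lower in WT and 2 higher and 1 lower in KO. The aspartate-glutamate carrier Slc25a12 rose 2.33-fold and 2.24-fold and malate dehydrogenase Mdh2 1.5-fold and 1.63-fold, while Slc25a13, the carrier form known as the main one of liver, fell by 0.59 and 0.48 on the log2 scale.

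Of 24 transcription regulators, 3 were higher and 6 lower in WT and 3 higher and 7 lower in KO, with medians of -0.02 and -0.13. Nr0b2 (SHP), a repressor of nuclear receptors, had 55.61 to 120.1 CPM in WT saline and 1.1 to 9.11 CPM in WT L-AC, and was 16-fold lower in WT and 11.6-fold lower in KO (edgeR adjusted p = 2.28e-06 and 3.64e-05). Cebpa was 3.02-fold and 2.66-fold lower, and the glucocorticoid receptor gene Nr3c1 1.45-fold and 1.52-fold lower. Of 12 hormone receptors and hormone-responsive genes, 5 were higher and 5 lower in each genotype. The cAMP phosphodiesterase Pde4d rose 3.23-fold and 2.5-fold. The adrenergic receptor Adra1b was 11-fold and 12-fold lower, and Tsc22d3, a glucocorticoid-induced gene, 4.13-fold and 5.34-fold lower, the opposite direction to Tat. Of 7 tested paralogues of the 10 genes, 4 were higher and 0 lower in both genotypes: Fbp2, Ppargc1b and Pprc1 (above) and G6pc3, the widely expressed glucose-6-phosphatase, at 0.35 on the log2 scale in WT.

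**Figure D4:**
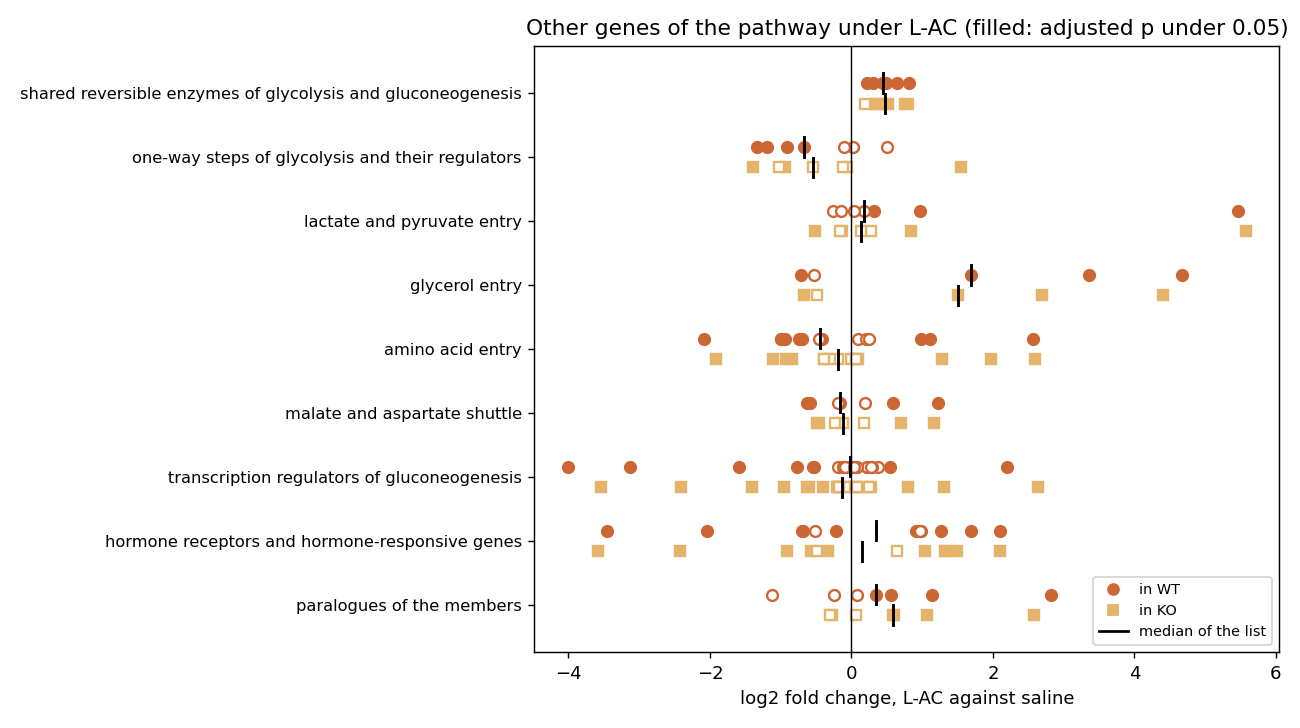
Log2 fold changes under L-AC of every tested gene in 9 lists of the pathway, in WT (circles) and KO (squares), filled where the adjusted p was under 0.05, with a bar at each list's median. The reversible enzymes lie together above 0, Nr0b2 and Adra1b lie farthest to the left in WT at -4.00 and -3.46, and Pdk4 farthest to the right at 5.46 and 5.57.

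Some cell type markers also differed between treatments. Their counts stand beside 26.6% of all genes called higher and 26.7% lower in WT, and 25.2% and 23.6% in KO. The summed CPM of 6 hepatocyte markers was 56110 to 68350 over the saline libraries and 29410 to 53790 over the L-AC libraries, with 0 of 6 called higher and 2 lower in WT and 4 lower in KO. Of 8 markers of periportal hepatocytes, the zone where gluconeogenesis is known to be strongest, 1 was higher and 4 lower in each genotype. Their summed CPM was 4435 to 6929 over the saline libraries and 3045 to 6369 over the L-AC libraries. Cps1 was the largest part of that sum, at a mean of 2019 CPM in WT saline and 3030 in WT L-AC, and was not called. In WT, Cyp2f2 was 3.06-fold lower, Pigr 2.05-fold, Ctsc 2.47-fold and Aldh1b1 6.46-fold, while Hsd17b13 was 1.81-fold higher. Of 9 pericentral markers 0 were higher, with 7 lower in WT and 6 in KO, and their summed CPM was 11300 to 14860 under saline and 3947 to 9123 under L-AC, without overlap. Of 6 stellate cell markers, 4 were higher in WT and 2 in KO, and the summed CPM was 91.23 to 212.2 under saline and 164 to 234.2 under L-AC. Among 6 endothelial markers 0 were higher, with 1 lower in WT and 2 in KO. Of 5 tested Kupffer cell and macrophage markers, 1 was higher and 3 lower in WT, and 1 and 2 in KO. Of 6 tested lymphocyte and neutrophil markers, 1 was higher and 3 lower in WT, and 1 and 1 in KO. Cholangiocyte and erythroid markers each had 0 higher and 1 lower in both genotypes. Pancreas acinar markers summed to at most 80.69 CPM in KO saline and 39.33 in WT L-AC, with medians of 13.99 and 8.612. Kidney proximal tubule markers, which would mark another gluconeogenic tissue, summed to at most 11.31 CPM in any library. Most of that sum was Slc5a2, at 5.617 to 11.12 CPM. The part of these shifts in the values of the 10 genes was not tested.

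Within a treatment, levels of the 10 genes were compared with the co-activator. Over 18 relations (9 genes, 12 saline and 11 L-AC libraries), 0 Pearson and 0 Spearman correlations with Ppargc1a passed after Benjamini-Hochberg adjustment in permutation tests with 100000 resamples. The 2 that reached an unadjusted p under 0.05 were both with Slc37a4 and had opposite signs. Under saline r was 0.61 (permutation p = 0.0351, adjusted p = 0.316; rho = 0.531, adjusted p = 0.439), and 0.313 without the 2 libraries farthest from the median of Ppargc1a. Under L-AC r was -0.717 (permutation p = 0.0118, adjusted p = 0.213; rho = -0.8, adjusted p = 0.0839), and -0.885 without the 2 farthest libraries (adjusted p = 0.0506).

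The genes most like 3 of the 10 were sought among 11611 genes, by the smaller of the Pearson correlations of log2 CPM over the 12 saline and over the 11 L-AC libraries. For G6pc these were Nfil3, a circadian repressor (0.868 and 0.697), Map3k12 (0.651 and 0.746) and Gtf2a1 (0.648 and 0.656). For Pck1 they were Gm10785 (0.744 and 0.746), Tbc1d9b (0.74 and 0.828) and Mboat7 (0.749 and 0.737). For Ppargc1a they were Ell2 (0.688 and 0.713), Srfbp1 (0.6 and 0.593) and Nr1i2, the xenobiotic receptor PXR (0.597 and 0.588). The libraries share treatment and scaling, and the values describe these libraries only.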

How the data were processed

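Liver polyA RNA of 23 mice was sequenced as single-end reads, per the labels' protocols. Reads were aligned with STAR 2.4.0 to mm10, per the submitters' processing notes. The deposited files hold raw counts, which the authors made with featureCounts 1.4.4 on UCSC mm10 exons, grouped by gene, with primary alignments only, no strand setting and reads allowed in several overlapping genes, per the file headers. No exon base of the 10 genes is shared with another gene of the tables. Groups came from the labels. Replicates are separate animals numbered in accession order, so equal numbers do not pair them. The 10 genes and the lists were chosen with earlier results of these data known.

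From the counts, genes were kept by filterByExpr of edgeR 4.0.16 in R 4.3.3 (minimum count 10, minimum total 15), normalized by TMM and fitted by quasi-likelihood, with a mean for each of the 4 groups and 1 spread shared by all 23 libraries. CPM are counts per scaled library size. Adjusted p-values are Benjamini-Hochberg over 14196 genes, and p-values are two-sided. The script was tested on simulated data. Counts per library ran from 24521896 to 48095959. The SE of the L-AC response was largest for Pck2, at 0.381 in WT and 0.437 in KO. Named were all 10 genes, up to 3 called genes of the smallest p in WT per list, and the 3 genes most like each of Ppargc1a, Pck1 and G6pc. Hk2, Gpi1, Aqp9, G6pc3 and the genes set beside Pck2 were named after their values were seen. Alternatives were DESeq2 1.42.0, limma-voom (limma 3.58.1), other filters, age as a covariate, only the groups compared, and leaving out each library. Part of the list for the one-way steps of glycolysis is not reported here, and its counts and named genes are over the rest.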

Additional observations from a re-analysis of the deposited data

Results flagged for a closer look

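In 40 groups of log2 CPM values (10 genes in 4 groups), 5 had a library whose gap to its nearest neighbour, as a share of the whole range, passed the 95% limit of Dixon's test, where chance flags about 1 in 20. Pck2 had a share of 0.576 in WT saline (replicate 1, 4.051 CPM) and of 0.756 in KO L-AC (replicate 3, 18.81 CPM). The other 3 were in WT L-AC: G6pc in replicate 4 (0.801, 376 CPM), Gpt in replicate 5 (0.697, 202.1 CPM) and Ppargc1a in replicate 6 (0.681, 9.364 CPM).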

How the results depend on the processing

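At an adjusted p under 0.01 the number of the 10 genes higher under L-AC in WT was 1, and the numbers lower were 1 in WT, 1 in KO and 3 in the average over genotypes, beside 20.1% of all genes higher in WT and 19.9%, 16.4% and 26.7% lower. With each library left out in turn, the number higher in WT ranged from 1 to 2, lower in WT from 2 to 4 and higher in KO from 1 to 2. The number lower in KO ranged from 2 to 3, and lower in the average from 5 to 6. With all 23 libraries, 26.6% of all genes were higher and 26.7% lower in WT, and 25.2% and 23.6% in KO. In the average these shares were 32.6% in each direction. Without KO L-AC replicate 3, 3327 of all genes were higher and 3116 lower in KO. The lowest numbers of genes called higher came without WT L-AC replicate 5 (Tat lost in WT) and without KO L-AC replicate 3 (Pck2 lost in KO). The highest number lower in WT came without WT saline replicate 6 (Slc37a4 and Gpt gained). Pcx in KO changed sign, to 0.004 with age as a covariate, and ranged from -0.0761 to 0.0772 with a library left out. Ppargc1a in KO was also lost with no filter on low counts (adjusted p = 0.0513), and Gpt in KO was gained with age as a covariate (adjusted p = 0.0461). Slc37a4 in WT passed when only the groups compared were fitted (adjusted p = 0.0416) and in 6 of 23 fits without a library. G6pc in the average over genotypes passed in 3 of 23 such fits. The cause was not tested. Fbp1 and Gpt2 kept their direction and their call in both genotypes in all 23 of these fits. No paired analysis was possible because the replicate numbers follow accession order and pair no animals. Pck2 had the fewest reads of the 10 genes, 43 in its lowest library. Its spread was also the widest, with an SD of 7.11 CPM around a mean of 6.14 in KO L-AC. What part depth had in that spread was not tested.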
